A study of Bos taurus with 8 samples.

Results

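A set of 10 genes of epithelial defence and the acute phase was followed in the rumen papillae of dairy cows fed a low-concentrate (LC) or a high-concentrate (HC) diet. They were the beta-defensins LAP, TAP and DEFB1, the iron-binding proteins LTF and LCN2, the acute phase proteins HP and SAA3, and the bacteriolytic or bactericidal proteins PGLYRP1, LYZ and LPO. The genes were chosen by symbol, and a probe was assigned to a gene where the RefSeq accession of the array's annotation led to that symbol. Of the 10 genes, 7 had a probe, 1 each, and these 7 were among 7788 genes named in this way. No probe was matched to DEFB1, LCN2 or LPO, which are not analysed here. Of the 7 genes with a probe, 6 were measured well above background on all 8 arrays, and HP was so on none.

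RNA came from papillae of the ventral sac of the rumen of 4 ruminally cannulated female Holstein cows, 84 d in milk on average at the start, in a crossover trial with 2 periods. In the LC group, concentrate made up 40% of the dry matter, and in the HC group 70%. Cows 1 and 2 received LC in period 1 and HC in period 2, and cows 3 and 4 received the diets in the opposite order. All cows had been kept on a low-concentrate ration before the trial. Papillae were taken on d 21 of each period, 4 h after the morning feeding, which gave 4 single-colour bovine arrays per diet, each cow contributing 1 to each diet. The age of the cows was not given in the sources used here.

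Antimicrobial peptides and proteins are made by epithelia that face microbes and by phagocytes. Beta-defensins are small cationic peptides that damage microbial membranes, and in cattle several of them are switched on in epithelial cells when receptors such as the Toll-like receptors sense bacterial products. Acute phase proteins are best known as liver products released into blood during inflammation, but SAA3 is a serum amyloid A form made outside the liver, also in epithelia. The rumen wall is a stratified squamous epithelium that lies against a dense microbial community, and a concentrate-rich diet is one setting in which inflammation of this wall is studied. The comparison of the HC with the LC group asks whether the genes of this defence differed in RNA level between the diets.

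Signals were strong enough to be well above background for 76.9% to 81.2% of the 21475 probes per array, the median signal of an array lay between 92.0 and 132 intensity units, and no spot was saturated. Both minima belonged to the LC array of cow 3, whereas the HC array of that cow had 79.8% of its probes well above background and a median of 115. Of 9 rumen epithelium markers with a probe, 8 passed the background test on every array and TP63 on none. The arrays of period 1 lay on one slide and those of period 2 on the other, and these factors are therefore 1 contrast. In a second, normalized table deposited with the arrays, the values headed cow 1 fitted the scanner output of cow 2 best and the reverse, on both diets (r = 0.999 across probes, against 0.994 under the same name), so it is uncertain which of these cows is which. Both cows had the same order of diets, and neither the diet comparison nor the pairing of arrays within a cow depends on their names. In whole papillae, fewer cells of a type and less RNA per cell cannot be told apart.

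Levels are given below as the quantile-normalized log2 signal of the probe, so a difference of 1 is a 2-fold difference. Brightness served only to choose which genes of a list are named, and no level of one gene is set against that of another. The beta-defensins LAP and TAP and the acute phase gene SAA3 varied widely over the 8 arrays, LTF, LYZ and PGLYRP1 varied less, and no gene of the set passed the test for diet.

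TAP (tracheal antimicrobial peptide, RefSeq NM_174776) is a beta-defensin first found in the airway lining of cattle. In the LC group, its log2 signal was 10.65 in cow 1, 15.16 in cow 2, 9.46 in cow 3 and 12.86 in cow 4. In the HC group, it was 13.42, 14.63, 9.15 and 10.83 in the same order. Cow 2 had the highest TAP signal and cow 3 the lowest on both diets, while cows 1 and 4 changed places. The lowest and the highest array lay 6.01 log2 units apart, a 64.6-fold range, and the diets overlapped almost completely. The 2 spots of the probe differed by at most 0.26 on any array, a small part of the range between arrays.

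LAP (lingual antimicrobial peptide, RefSeq NM_203435) is a beta-defensin described from inflamed bovine tongue and known to be inducible in epithelia. In the LC group, its log2 signal was 13.77, 14.13, 12.18 and 13.46 in cows 1 to 4. In the HC group, it was 15.25, 13.49, 13.22 and 13.07. The signal of cow 1 on HC stood above the other 7 arrays and that of cow 3 on LC below them, and the remaining 6 arrays of both diets intermingled. LAP and TAP are close relatives in a defensin cluster: in the RefSeq annotation of the assembly ARS-UCD2.0 they lie on the same chromosome with 10 protein-coding genes between them. The probe sequences were not used here, so whether either probe also captures RNA of the other gene or of another defensin was not tested.

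**Figure D1:**
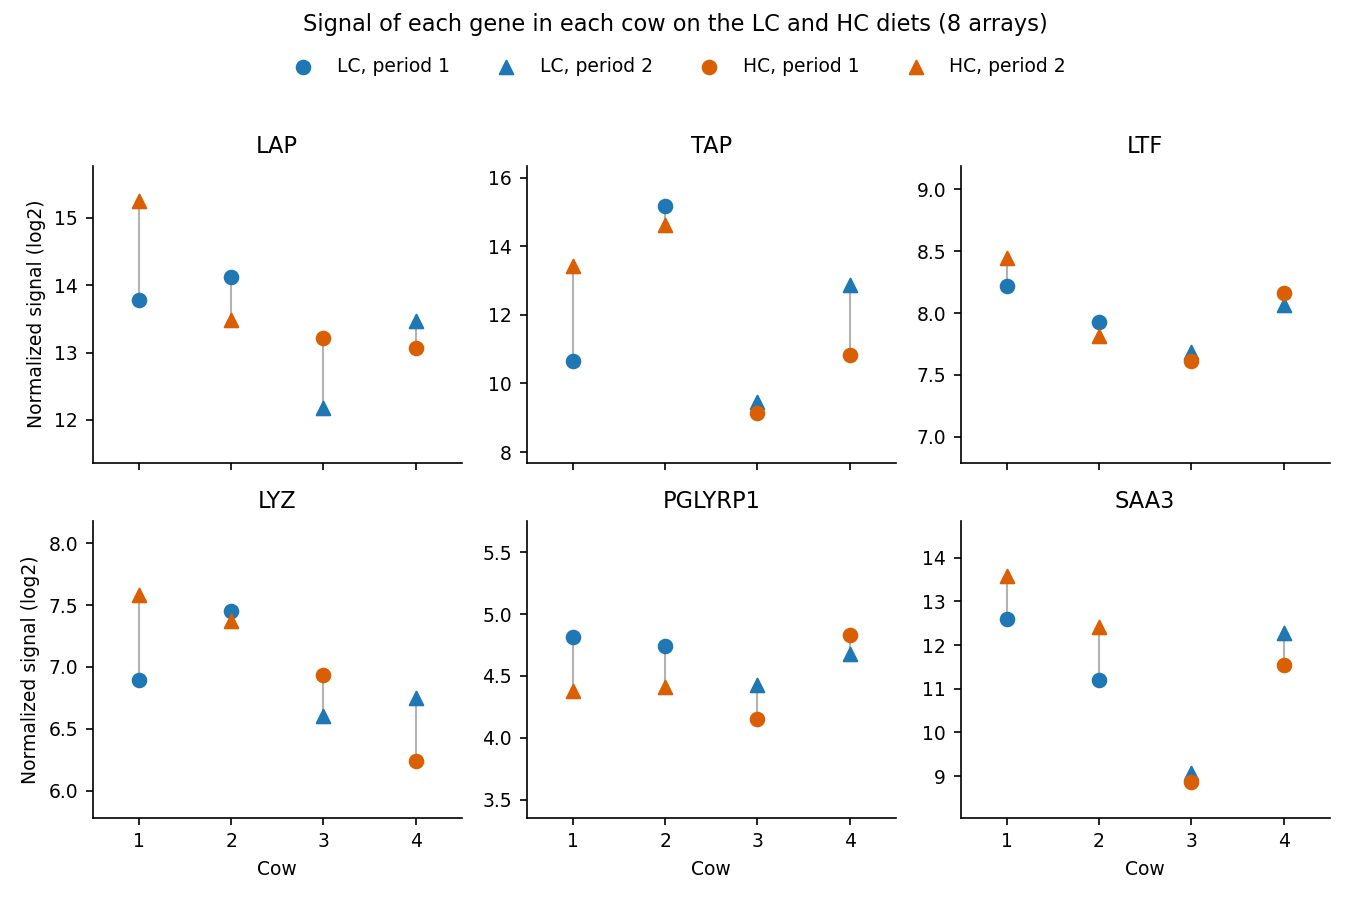
Normalized log2 signal (vertical axes) of the 6 genes measured on all 8 arrays in cows 1 to 4 (horizontal axes). Blue points are LC and orange points HC, circles are period 1 and triangles period 2, and a grey line joins the arrays of a cow, each point being 1 array. Each panel has its own scale. TAP and SAA3 were lowest in cow 3 on both diets, and no gene was higher on one diet in all 4 cows.

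SAA3 (RefSeq NM_181016) encodes a serum amyloid A protein of the acute phase. In the LC group, its log2 signal was 12.60, 11.20, 9.07 and 12.27 in cows 1 to 4. In the HC group, it was 13.59, 12.41, 8.86 and 11.55. Both arrays of cow 3 lay more than 2 log2 units below every other array, and the other cows covered 11.20 to 12.60 on LC and 11.55 to 13.59 on HC. The difference between HC and LC in one cow was never larger than 1.21 log2 units, against a span of 4.12 between the means of cow 3 (8.97) and cow 1 (13.09), a 17.4-fold span.

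Haptoglobin (HP, RefSeq NM_001040470) binds free haemoglobin and is, with serum amyloid A, the acute phase protein most often measured in the blood of cattle. Its probe was well above background on 0 of 8 arrays, with log2 signals of 0.43 to 1.24, and no fold change is given. The arrays do not bear on haptoglobin in blood.

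Lactoferrin (LTF, RefSeq NM_180998) withholds iron from bacteria and is carried by neutrophil granules and by secretory epithelia. Its log2 signal was 8.22, 7.93, 7.68 and 8.07 in cows 1 to 4 on LC. On HC, it was 8.45, 7.81, 7.62 and 8.16. The order of the cows was the same on both diets, with cow 3 lowest and cow 1 highest, and the arrays of one cow differed by only 0.07 to 0.23.

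LYZ (RefSeq NM_001078159) encodes a lysozyme, an enzyme that cleaves the peptidoglycan of bacterial walls. Its log2 signal on LC was 6.90, 7.46, 6.61 and 6.75 in cows 1 to 4, and on HC 7.59, 7.37, 6.94 and 6.24. It was the only measured gene of the set whose lowest cow mean was that of cow 4. Ruminants carry several lysozyme genes of high similarity, and signal from a relative's RNA on this probe was not tested.

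PGLYRP1 (RefSeq NM_174573) encodes a peptidoglycan recognition protein stored in neutrophil granules. Its probe was dim but well above background on all arrays, with log2 signals of 4.81, 4.74, 4.42 and 4.68 in cows 1 to 4 on LC. On HC, the signals were 4.38, 4.41, 4.15 and 4.83. PGLYRP1 was lower on HC in cows 1, 2 and 3 and higher in cow 4, and the diets overlapped.

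None of the 6 measured genes was called for diet. The call was that of the study, a fold change of at least 1.5 with an unadjusted p under 0.05, here from a limma fit of diet, period and their interaction, and 0.922% of all 21475 probes passed it (0.494% as higher and 0.428% as lower on HC). None of the 6 genes had an unadjusted p under 0.05 either, which 3.65% of all probes had, and the adjusted p rounded to 1.00 for each. No probe of the array had an adjusted p under 0.05 for diet. The median difference between HC and LC over the 6 genes was 0.071 on the log2 scale, beside -0.00019 over the 16030 probes that were well above background throughout. None of the 6 was higher on HC in all 4 cows, as 6.0% of all probes were.

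The mean of TAP was 12.03 ± 2.52 (SD, n = 4) on LC and 12.01 ± 2.48 on HC. The difference, HC minus LC, was -0.025 ± 1.21 (SE, limma p = 0.984; exact two-sided permutation p = 1.00), with a 95% interval from 0.130-fold to 7.45-fold. Here and below, the permutation test treated the arrays as independent and took no account of cow or period. The 4 cows gave 2.77, -0.53, -0.31 and -2.03 for HC minus LC. A change of several-fold in either direction thus lay within the interval, and 1 of 4 cows was higher on HC.

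LAP was 13.39 ± 0.85 on LC and 13.76 ± 1.01 on HC (SD, n = 4). Its difference was 0.37 ± 0.45 (SE, limma p = 0.439; exact permutation p = 0.600; interval 0.608-fold to 2.75-fold). Cows 1 and 3 had more signal on HC (1.47 and 1.04), and cows 2 and 4 less (-0.64 and -0.39). When cow 1's HC array was left out, the difference was -0.069.

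SAA3 was 11.29 ± 1.59 on LC and 11.60 ± 2.01 on HC (SD, n = 4). Its difference was 0.32 ± 0.92 (SE, limma p = 0.739; exact permutation p = 0.771; interval 0.268-fold to 5.80-fold). The 4 cows gave 0.99, 1.21, -0.21 and -0.72. With cow as a block and period in the fit, the difference stayed 0.32 and its SE fell to 0.12 (limma adjusted p = 0.843; interval 0.990-fold to 1.57-fold). In that fit 1.29% of all probes were called for diet, and SAA3 was not. With cow as a random block, the SE was 0.68 and the interval 0.399-fold to 3.90-fold.

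The 3 genes with the smaller spread had the narrower intervals. LTF was 7.97 ± 0.23 on LC and 8.01 ± 0.37 on HC, a difference of 0.036 ± 0.21 (SE, limma p = 0.869; exact permutation p = 0.886; interval 0.723-fold to 1.45-fold). LYZ was 6.93 ± 0.37 and 7.03 ± 0.59, a difference of 0.11 ± 0.20 (SE, limma p = 0.616; exact permutation p = 0.771; interval 0.768-fold to 1.51-fold). PGLYRP1 was 4.66 ± 0.17 and 4.44 ± 0.28, a difference of -0.22 ± 0.17 (SE, limma p = 0.227; exact permutation p = 0.286; interval 0.650-fold to 1.13-fold). For LTF and PGLYRP1 an increase of 1.5-fold or more on HC lay outside the interval, and for TAP, LAP, SAA3 and, narrowly, LYZ it did not. A decrease of that size lay outside it for LTF and LYZ. With cow as a fixed block and period in the fit, it also lay outside for SAA3 (lower limit 0.990-fold) and for PGLYRP1. For SAA3 it lay inside with the fixed block without period (0.659-fold to 2.36-fold) and with cow as a random block (0.399-fold to 3.90-fold). Over all 6 genes the exact permutation test, which ignores the pairing by cow, gave p from 0.286 to 1.00. The smallest p that 4 independent arrays against 4 allow is 0.0286.

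**Figure D2:**
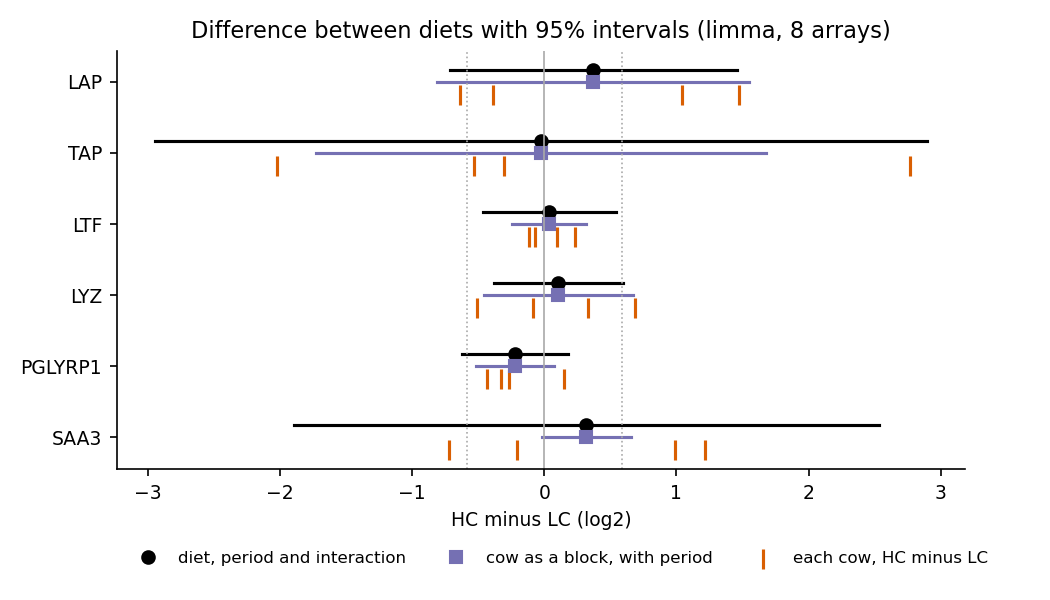
Difference between diets, HC minus LC in log2 units (horizontal axis), for the 6 genes. Black circles are the fit of diet, period and interaction and violet squares the fit with cow as a block, each with its 95% interval, orange ticks are the differences within the 4 cows, and dotted lines mark a 1.5-fold change. Every interval includes 0, and those of TAP and SAA3 in the fit without the block are the widest.

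Within 1 period the diets were compared between different cows. In period 1, HC was cows 3 and 4 and LC was cows 1 and 2, and in period 2 the reverse. The interaction of diet and period in the fit is therefore the same contrast as that between these pairs of cows. TAP differed between HC and LC by -2.92 in period 1 and by 2.87 in period 2, and SAA3 by -1.69 and 2.33. LAP (-0.81 and 1.55), LYZ (-0.59 and 0.80) and LTF (-0.18 and 0.25) also had opposite signs in the periods, and PGLYRP1 had -0.29 and -0.16. The opposite signs mean that cows 1 and 2 had the higher mean signal in both periods. A diet effect that changes with period cannot be told apart from a difference between the pairs of cows. Every cow changed diet between the periods, and cow 3 was on HC in period 1 and on LC in period 2. TAP, SAA3 and LTF were lowest in cow 3 on both diets. On HC in period 1, however, cow 4 was below cow 3 in LYZ (6.24 against 6.94) and in LAP (13.07 against 13.22). The part of any single cow in the opposite signs was not tested.

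No gene of the set was called for period in the same fit, in which 3.86% of all probes were. With cow as a block, SAA3 was called, being 0.78 higher in period 2 than in period 1 (SE 0.12, 1.72-fold, limma adjusted p = 0.156), and it was higher in period 2 in 4 of 4 cows. With cow as a random block (estimated correlation of the arrays of a cow 0.288) the call was lost, the SE of the difference being 0.68 and the limma adjusted p = 0.620. In the fit with the fixed block 4.48% of all probes were called, none with an adjusted p under 0.05. The signs of HC minus LC were thus opposite in cows 1 and 2 and in cows 3 and 4, as they were for 25.3% of all probes. Period, slide and the order of the diets cannot be told apart for this gene.

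The spread over the 8 arrays set 3 of the genes apart from most of the array. The SD over the 8 arrays was 2.31 for TAP, 1.69 for SAA3 and 0.885 for LAP, beside a median of 0.203 over those 16030 probes. TAP was 6th, SAA3 11th and LAP 121st from the top among these probes, so that 0.0374%, 0.0686% and 0.755% of the probes had an SD at least as large. LYZ (SD 0.462, reached by 6.92% of the probes), LTF (0.284, 26.9%) and PGLYRP1 (0.247, 35.8%) lay closer to the bulk.

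**Figure D3:**
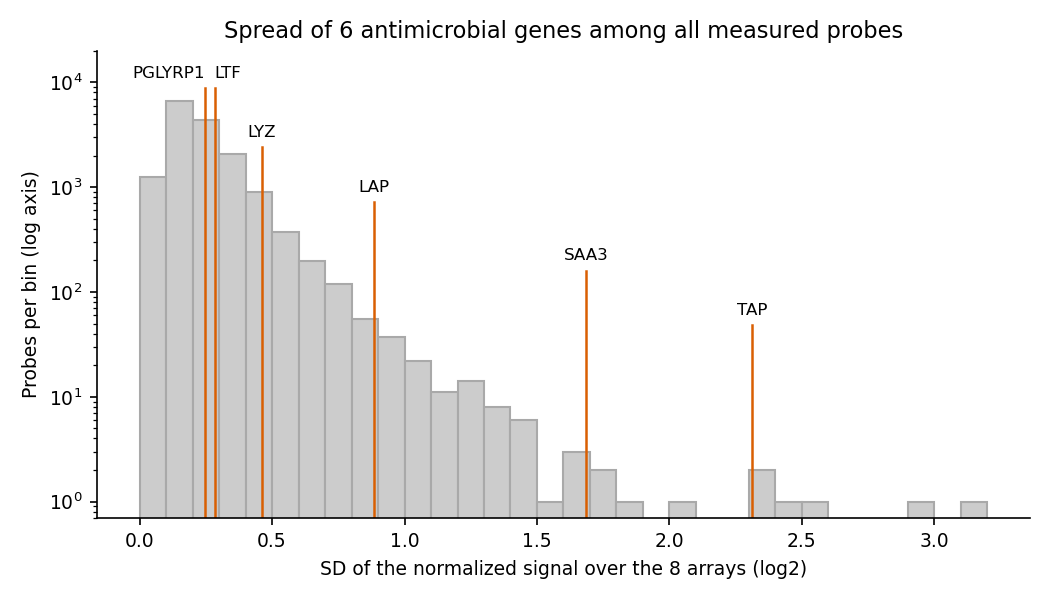
Number of probes (vertical log axis) by the SD of the normalized log2 signal over the 8 arrays (horizontal axis), for the 16030 probes measured well above background throughout. Orange lines mark the 6 genes at their own SD. TAP and SAA3 lie in the sparse right tail and PGLYRP1 and LTF in the main body.

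SAA3, TAP and LTF differed more between cows than between the arrays of a cow. A limma F test over the 4 cows, with diet and period in the fit, was added after the values by cow had been seen. It gave F = 198 for SAA3 (adjusted p = 0.0353), F = 13.0 for TAP (adjusted p = 0.212) and F = 8.15 for LTF (adjusted p = 0.268). An adjusted p under 0.05 was found for 0.158% of all probes. These 3 of the 6 genes had an unadjusted p under 0.05, as had 15.4% of the 16030 probes, and LYZ, PGLYRP1 and LAP had not. With any 1 of the 8 arrays left out, the adjusted p of SAA3 lay between 0.168 and 0.267, and without both arrays of cow 3 it was 0.269. TAP no longer had an unadjusted p under 0.05 without the LC array of cow 3 or without both arrays of that cow, and LTF did not without cow 3 or without any 1 array other than that of cow 2 on LC.

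The means of the cows spanned 5.59 for TAP, from 9.30 in cow 3 to 14.90 in cow 2, a 48.3-fold span. Within a cow, TAP differed between the diets by 0.31 to 2.77, cow 1 moving the most. For LAP the span was 1.81 (3.51-fold) against 0.39 to 1.47 within a cow. For LTF it was 0.68 (1.60-fold) against 0.07 to 0.23. Cow 3 had the lowest mean of the 4 cows in TAP, LAP, SAA3, LTF and PGLYRP1, 5 of the 6 genes.

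Markers of other cell types moved in part with cow 3. Of 10 neutrophil markers with a probe, 6 passed the background test on all arrays, and their mean log2 signal was lowest in cow 3 on both diets, 11.08 on LC and 11.14 on HC, within ranges of 11.08 to 11.69 and 11.14 to 11.97. Their summed signal ranged from 468594 to 587809 on LC and from 484177 to 622265 on HC. The S100 genes among them are also made by stratified epithelia. FCGR3A, S100A8 and S100A9 were lowest in cow 3 on both diets, S100A9 with 12.77 and 12.82. MMP9 was so on LC only, and CXCR1 and S100A12 on neither diet. CXCR1 was lower in cow 2 on both diets (4.84 and 4.97, against 5.26 and 5.31 in cow 3). MPO, CATHL1 and CATHL3, proteins of neutrophil granules, were well above background on no array, and CATHL2 on 3.

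Of 7 macrophage markers, 6 passed it on all arrays and ITGAM on none, and their mean was again lowest in cow 3, 7.59 on LC and 7.75 on HC, within ranges of 7.59 to 7.94 and 7.75 to 8.46. Their summed signal ranged from 3881 to 5676 on LC and from 4619 to 7679 on HC. AIF1 and CD14 were lowest in cow 3 on both diets, and CD68 and C1QA on LC only. MSR1 and CD86 were so on neither diet, and MSR1 was highest in cow 3 on LC (5.13). The neutrophil and the macrophage mean were highest over all 8 arrays in cow 1 on HC and lowest in cow 3 on LC, the same arrays that were highest and lowest in LAP. The mean of the rumen epithelium markers ranged from 14.83 to 15.25 on LC and from 14.77 to 15.36 on HC, with summed signals of 644675 to 809841 and 694080 to 813782. The summed signal was lowest in cow 3 on both diets, as were the keratins KRT14 and KRT6A, whereas the mean was lowest in cow 3 on LC and in cow 2 on HC. Of 5 secretory gland markers with a probe, 3 passed on all arrays. PIGR, the receptor that carries immunoglobulin across glandular epithelium, passed on none. The mean of the 3 was highest in cow 3 on LC, 9.25 (range 8.97 to 9.25). On HC it was 9.17 in cow 3 and lowest in cow 2 (range 8.99 to 9.24). The part of cell composition in the spread of LAP and in the differences between cows was not tested.

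The other defensins and cathelicidins of the array were taken as a family list. Of 32 listed genes, 9 had a probe, 6 of these were measured on all 8 arrays and none was called for diet, with a median difference of 0.10 over the 6. Among the 4 brightest, DEFB7 differed by 0.36, DEFB4A by 0.15, the enteric beta-defensin EBD by 0.11 and the cathelicidin CATHL6 by -0.14 on the log2 scale. Each of these differences had a limma p above 0.3.

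DEFB4A followed the cows in another order than TAP. Its log2 signal in cows 1 to 4 was 11.37, 8.85, 10.56 and 8.71 on LC and 11.79, 9.05, 10.57 and 8.69 on HC. Cows 1 and 3 were high and cows 2 and 4 low on both diets, so the cow with the least TAP signal was not low in DEFB4A. In the F test over cows, DEFB4A had F = 233 (limma, adjusted p = 0.0353).

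DEFB7 had log2 signals of 10.03, 11.06, 8.94 and 9.83 on LC and 11.60, 10.65, 9.55 and 9.48 on HC, and like LAP it was highest in cow 1 on HC and lowest in cow 3 on LC. EBD had 6.90, 8.15, 6.92 and 8.06 on LC and 7.37, 7.84, 6.97 and 8.27 on HC, with cows 2 and 4 above cows 1 and 3 on both diets (limma F test over cows, adjusted p = 0.198). The beta-defensins of the array thus had at least 3 different orders of the cows.

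**Figure D4:**
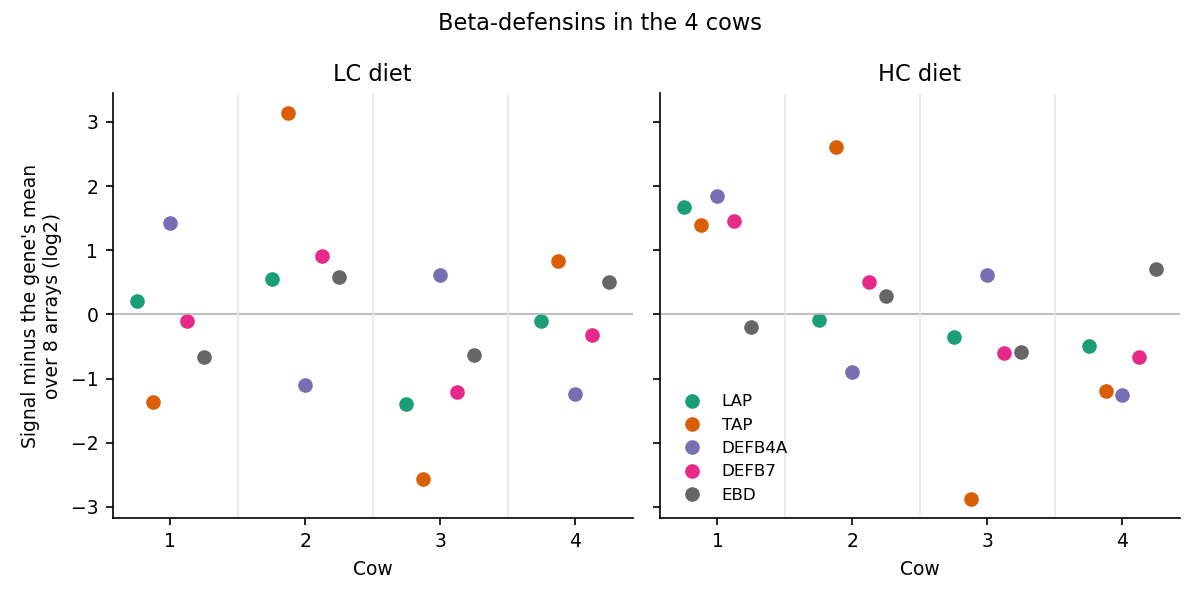
Log2 signal of 5 beta-defensins minus the gene's own mean over the 8 arrays (vertical axis) in cows 1 to 4 (horizontal axis), with LC on the left and HC on the right, each point 1 array. Points of a cow are set side by side for legibility. On both diets, cow 3 lies below the mean in TAP, LAP, DEFB7 and EBD and above it in DEFB4A.

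Of 42 other secreted defence genes, 23 had a probe, 15 of these were measured on all 8 arrays and none was called for diet (median 0.030). The 4 brightest were the calcium-binding calgranulins S100A12 (0.048), S100A8 (0.094) and S100A9 (0.28) and the galectin LGALS3, whose difference was -0.075. S100A9, which sequesters metals from microbes, was 12.77 on LC and 12.82 on HC in cow 3 and 13.91 to 15.49 in the other cows (limma F test over cows, adjusted p = 0.211). It thus shared the low position of cow 3 with SAA3 and TAP.

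Of 32 other acute phase genes, 19 had a probe and 13 of these were measured on all 8 arrays, with a median difference of 0.080. The fibrinogen chain FGB passed the call as lower on HC, as 0.428% of all probes did. It was well above background on 1 array only, and no fold change is given. The 4 brightest were the complement factor CFB (0.12), the plasma glycoprotein AHSG (-0.20), the lipopolysaccharide-binding protein LBP (0.19) and the transport protein TTR (0.14), none called for diet. LBP and TTR were lowest in cow 3 on both diets, LBP with 10.93 and 11.15 and TTR with 7.75 and 8.26 (limma F test over cows, adjusted p = 0.242 and adjusted p = 0.121). AHSG was lowest in cow 3 on LC only, and CFB on HC only. HAMP, of the same list, was highest in cow 3 on both diets, with 5.85 and 6.14. AHSG and TTR also stand on the list of hepatocyte markers, of which 5 of 8 with a probe were measured on all 8 arrays. The mean log2 signal of these 5 was lowest in cow 3 as well, 8.60 on LC (range 8.60 to 10.23) and 9.03 on HC (range 9.03 to 9.69). TTR alone of the 5 was lowest in cow 3 on both diets. On HC the others were each lower in another cow, AHSG with 13.21 in cow 2 against 13.40 in cow 3. The part of these markers in the difference between cows was not tested.

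The list of inducers and sensors held cytokines, Toll-like receptors and NF-κB components that act upstream of many defensin and acute phase genes. Of 34 listed, 23 had a probe and 18 of these were measured on all 8 arrays (median 0.029). Of the 23, 1 was called higher on HC, as 0.494% of all probes were, and none lower, as 0.428% were. The called gene was IL1B, a cytokine that activates epithelia and phagocytes, with 4.54 ± 0.39 on LC and 5.21 ± 1.08 on HC (SD, n = 4), a difference of 0.67 ± 0.22 (SE, limma p = 0.0217, adjusted p = 1.00; exact permutation p = 0.314). The differences within cows 1 to 4 were 1.31, 1.22, 0.58 and -0.44. The NF-κB subunit RELA (0.19), its inhibitors NFKBIA (0.094) and NFKBIZ (0.023), which also acts as a co-activator, and the transcription factor STAT3 (0.0090) were the brightest of the list, and none was called.

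The genes most like TAP, SAA3 and LAP were sought by Pearson r over the 8 arrays among 6415 genes measured on all of them. This is a description over 4 cows sampled on 2 occasions, and it says nothing of shared function or control. For TAP the leading genes were GFOD2 (r = 0.934), TIPIN (0.917), the keratin KRT23 (0.912), SESN2 (0.908) and LBP (0.905). For SAA3 they were SMYD2 (0.990), CDC6 (0.979), VRK1, PSMG2 (both 0.972) and CNKSR3 (0.969), with ranges over the arrays of 0.56 to 1.11 log2 units against 4.72 for SAA3. For LAP they were MYBL2 (0.953), IRF8, FCGR2B (both 0.947), ECI2 (0.942) and CD40 (0.939), of which IRF8, FCGR2B and CD40 are known from B cells and phagocytes. The plasma and B cell markers, 3 of 4 with a probe measured on all 8 arrays, had mean log2 signals of 8.83 to 9.36 on LC and 8.75 to 9.33 on HC. Cow 3 had the lowest mean on both diets. On LC only XBP1 of the 3 was itself lowest in cow 3, and on HC only JCHAIN and CD79A were. The part of these markers in these patterns was not tested.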

How the data were processed

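RNA of rumen papillae from 4 cows on 2 diets was measured on 8 single-colour Agilent bovine arrays. The authors deposited, for each array, the background-subtracted intensity of each spot (Feature Extraction 10.7.3.1) and, for the series, a table of quantile-normalized log2 values per probe, which served as an alternative. Control and outlier spots were left out, log2 intensities were quantile-normalized, and duplicate spots averaged (limma 3.58.1, R 4.3.3). A probe counted as well above background where all its spots passed the software's test. Probes were named by RefSeq accession through the ARS-UCD2.0 gene table; the array's annotation is of another build, so no positions are given. Diet, period and interaction were fitted to all 21475 probes with limma (eBayes without trend), with Benjamini-Hochberg adjustment. Intervals are at 95% and, in this fit, rest on 4 residual and 2.26 prior degrees of freedom. With cow as a fixed block and period they rest on 2 and 2.37, and with cow as a random block on 4 and 2.31. The F test over cows used the same terms as the fit with the fixed block and period. The number of arrays limits the precision.

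The same number marks the same cow in both groups, per the labels. Deviations of the arrays of 1 cow from the group means correlated across probes with r = 0.285, 0.298, 0.467 and 0.113 in cows 1 to 4, and those of different cows with -0.237 to 0.185. The genes and lists were chosen with earlier results of these data known. Named from each list were genes called for diet and the 4 brightest. HAMP and single markers of cell types were also named, after their values were seen. DEFB7, EBD and DEFB4A were plotted, and the lowest cow of S100A9, LBP, TTR, AHSG and CFB given, after their values were seen. Tables and plots were made with pandas 2.3.3, scipy 1.17.1 and matplotlib 3.10.9 in Python 3.11.15. The fits were tested on simulated data. The deposited files used here hold no mean spot signal, so the normexp alternative (offset 50) used median spot and background signals.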

Additional observations from a re-analysis of the deposited data

Results flagged for a closer look

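SAA3 moved in opposite directions in the pairs of cows that received the diets in opposite order. HC minus LC averaged 1.10 on the log2 scale in cows 1 and 2, both higher on HC, and -0.463 in cows 3 and 4, both lower on HC. The difference between these pairs is the same contrast as period, for which limma gave an adjusted p = 0.807 without cow in the fit, an adjusted p = 0.156 with cow as a fixed block and an adjusted p = 0.620 with cow as a random block, the unadjusted p being under 0.05 only with the fixed block. Of all probes, 25.3% had opposite signs of this kind. No array stood apart from the other 3 of its diet by Dixon's test in any of the 12 groups of the 6 genes, of which chance flags about 1 in 20. The largest gap, as a share of the range of its group, was 0.809, for LAP in cow 1 on HC. With 4 arrays in a group, the test can flag only extreme gaps.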

How the results depend on the processing

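None of the 6 genes was called for diet under any of the 18 other settings run, and of their 108 differences under those settings 93 kept their direction and 15 reversed. LYZ was -0.10 without cow 3. With 1 array left out, TAP ranged from -1.15 to 1.10, SAA3 from -0.48 to 1.12, LAP from -0.069 to 0.81, LTF from -0.12 to 0.19, LYZ from -0.068 to 0.28 and PGLYRP1 from -0.39 to -0.052. With cow as a fixed replicate block and period, 1 gene (SAA3) was called for period, against 0 without the block and 0 with cow as a random block, and the pairing changed no other call of the set. With the fixed block, 276 probes (1.29%) were called for diet. Of all probes, 198 were called for diet in the reported fit, 8 after normexp correction, 415 in the deposited table, 75 after a filter on dim probes, 105 without moderated variance, and 239 to 404 with 1 array left out. The cause of these shifts was not tested, other than that the filter tests fewer probes. The number of genes with p under 0.05 between cows was 3, but 1 without moderation, 1 without cow 3, and 1 to 4 with 1 array left out (1 without the LC array of cow 3). TAP kept p under 0.05 in 11 and LTF in 5 of 14 settings. SAA3 kept p under 0.05 in 14 of 14 and an adjusted p under 0.05 in 4. The mean over several probes of a gene was not run, since each gene of the set had 1 probe. HP's absence of signal limits what can be said of it, and in the deposited table its HC value in the column of cow 2 (0.46) equalled the mean of the other 3 within 0.005; that column follows the scanner array of cow 1, where HP is 1.24, against 0.48 on the array of cow 2.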
